A study of Mus musculus with 5 samples.

Results

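The Hox genes encode the homeodomain transcription factors of 4 chromosomal clusters, and they were described here in adipose stem cells sorted from subcutaneous (SAT) and visceral (VAT) fat of mice. The 38 Hox genes were found by gene name among the 54532 genes of the count table: 10 belong to cluster A, 10 to cluster B, 9 to cluster C and 9 to cluster D. The 5 libraries came from wild-type mice on chow diet, 30 in all and aged 12 to 14 weeks. The labels give no strain or sex, do not say which fat pads were taken, and do not say whether libraries came from separate pools of mice. Stromal cells were sorted after cells positive for CD31 or CD45 had been gated out, on CD26 (the product of Dpp4) and CD142 (tissue factor, the product of F3). SAT gave 2 libraries. VAT gave 3, namely 2 of the CD26-CD142+ gate and 1 of the CD26+CD142+ gate. What is called SAT library 1 here was titled CD26+CD142- but carries CD142 in its library name, and SAT library 2 was titled CD26-CD142+ but carries CD26 in its name. Every comparison that uses the SAT gates was therefore made by title and again by name.

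Hox genes lie in the same order in each cluster, and a gene's place in that order is its paralogue position, from 1 to 13. In the embryo, genes at low positions are switched on early and reach far forward along the body axis, and genes at high positions are switched on later and stay behind in the lumbar, sacral and tail regions and in the limbs. Cells of adult connective tissue keep much of the Hox code of the place where they arose, and fat progenitors of different depots are known for different codes.

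Total counts ran from 21706345 to 25357403 per library. All 10 adipose progenitor markers were above 1 CPM (counts scaled to an equal total per library) in every library, with Pdgfra, a receptor of fibroblasts and fat progenitors, between 682 and 1173 CPM. Depot labels matched Tbx15, a subcutaneous regulator at 129 and 97.2 CPM in SAT and at most 0.275 CPM in VAT, and Wt1, a visceral mesothelial regulator at 112 to 154 CPM in VAT and at most 0.045 CPM in SAT. The sort genes went against the SAT titles: Dpp4 was at 6.58 CPM in SAT library 1 and 1007 CPM in SAT library 2, and F3 was at 618 and 5.32 CPM. Of the genes behind the excluded markers, Pecam1 (CD31) was at 2.32 to 7.26 CPM and Ptprc (CD45) at 0.183 to 0.989 CPM. The share of mitochondrial transcripts was 2.83% and 4.33% in the SAT and VAT libraries whose names end in 1, and 0.554% to 0.633% where names end in 2.

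Of the 38 Hox genes, 14 reached 10 CPM in at least 1 library, 10 more reached between 1.01 and 8.43 CPM, and 14 stayed under 1 CPM in every library. The detected genes, those with at least 1 CPM in 1 library, were 9 of 10 in cluster A, 6 of 10 in B, 7 of 9 in C and 2 of 9 in D. Genes at both ends of the order were missing. Hoxb1 and Hoxd1, which act in the embryonic hindbrain, had at most 1 count in any library, and no gene at positions 12 or 13 had more than 9 counts. Hoxb13, Hoxc12, Hoxc13, Hoxd4 and Hoxd12 had 0 counts in every library. A floor of 3 counts corresponds to between 0.124 and 0.138 CPM. Hoxd4 has 2 rows in the count table, and their annotated spans overlap on the same strand. How reads shared by genes were counted is not given, so the 0 of Hoxd4 does not show that it was absent. Intervals and floors cover counting error only.

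**Figure D1:**
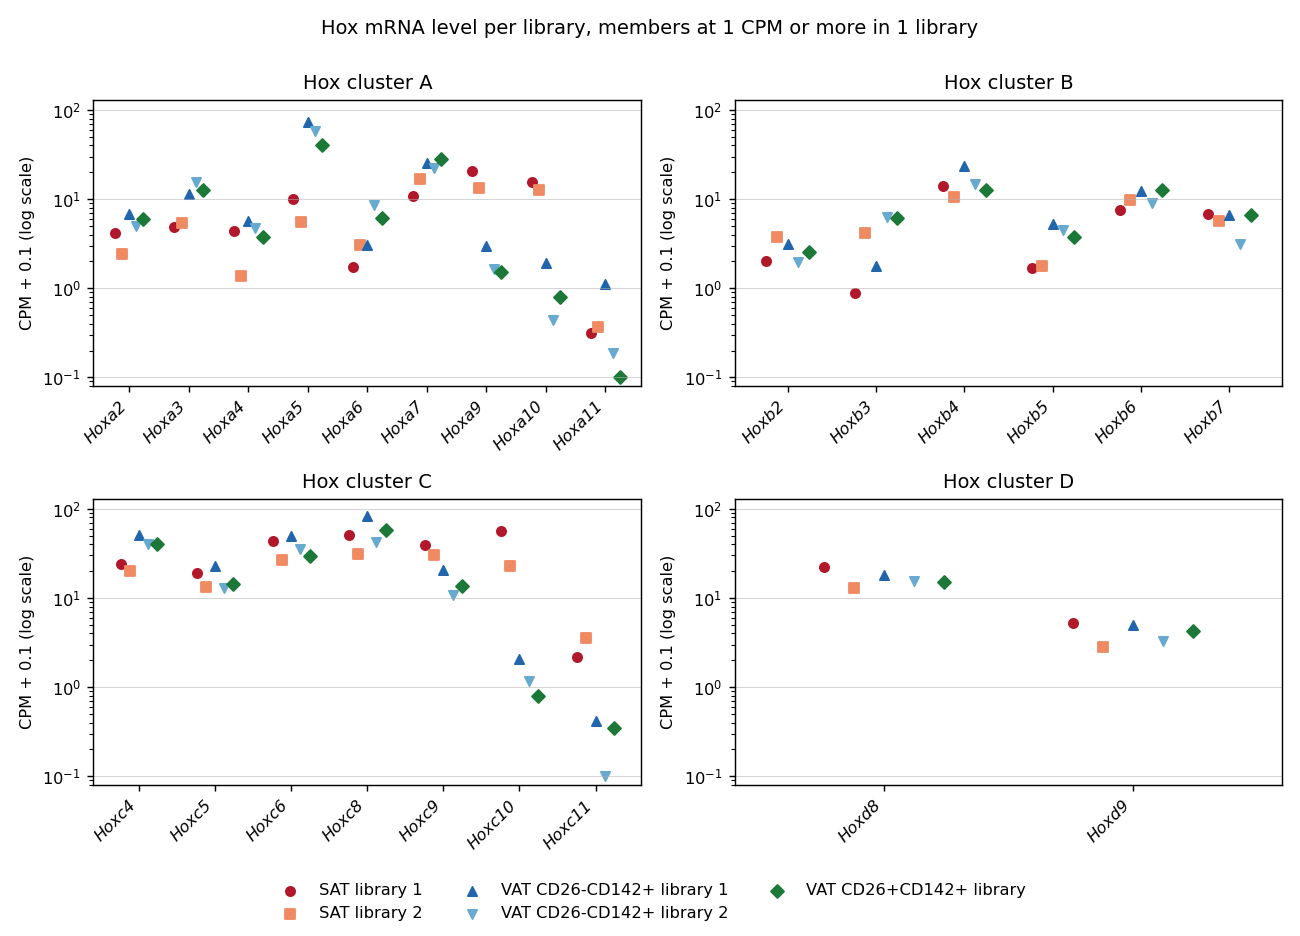
Level of the 24 detected Hox genes in each of the 5 libraries, as CPM plus 0.1 on a logarithmic axis, 1 panel per cluster and genes in paralogue order. Points are single libraries. Hoxa5 lies higher in the VAT libraries, and Hoxa9, Hoxa10, Hoxc10 and Hoxc11 lie higher in the SAT libraries.

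In cluster A, on chromosome 6, the depots differed in opposite directions on the 2 sides of a point between Hoxa7 and Hoxa9. Hoxa5 (ENSMUSG00000038253) spans 52201754 to 52204587 of mm10, Hoxa9 (ENSMUSG00000038227) spans 52223100 to 52231089 and Hoxa10 (ENSMUSG00000000938) spans 52231197 to 52240854. Hoxa5, which shapes the lung and the skeleton at the base of the neck in mouse, had the highest level per gene length of all 38 Hox genes in each VAT library. It was at 9.91 and 5.41 CPM in SAT libraries 1 and 2, at 73.8 and 58.5 CPM in VAT CD26-CD142+ libraries 1 and 2, and at 40.2 CPM in the VAT CD26+CD142+ library. All VAT libraries were above both SAT libraries, with means of 57.5 ± 16.8 CPM (SD, n = 3) in VAT and 7.66 ± 3.18 CPM (SD, n = 2) in SAT, a ratio of 7.50. Every SD within a depot spans libraries of different gates. Here and below, fewer cells that express a gene and less RNA per cell cannot be told apart in bulk libraries.

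Hoxa9 and Hoxa10, which lie next to each other and pattern the lumbar region, the limbs and the reproductive tract in mouse, had the opposite order. Hoxa9 was at 20.4 and 13.2 CPM in the SAT libraries and at 2.84, 1.55 and 1.40 CPM in the VAT libraries, listed throughout as the CD26-CD142+ pair followed by the CD26+CD142+ library. Hoxa10 was at 15.5 and 12.5 CPM in SAT and at 1.83, 0.344 and 0.701 CPM in VAT. Neither gene overlapped between depots, and the SAT means were 8.70 times the VAT mean for Hoxa9 and 14.6 times for Hoxa10. Per gene length (TPM, which divides counts by gene length before scaling them), the ratio of Hoxa5 to Hoxa9 was 1.45 and 1.22 in SAT and 77.1, 112 and 85.3 in VAT.

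The stretches of 250 bases before the annotated starts of Hoxa5, Hoxa9 and Hoxa10 are shown because these neighbours in 1 cluster took opposite depot directions. They come from RefSeq on GRCm38.p6 (mm10), lie on the minus strand of chromosome 6, and overlap no annotated exon. Hoxa5 was read from chr6:52204588-52204837, Hoxa9 from chr6:52227371-52227620, and Hoxa10, which has 2 starts in the table, from chr6:52240855-52241104 and chr6:52234940-52235189. Capitals mark TAAT on either strand, the core that homeodomains bind.
Hoxa5: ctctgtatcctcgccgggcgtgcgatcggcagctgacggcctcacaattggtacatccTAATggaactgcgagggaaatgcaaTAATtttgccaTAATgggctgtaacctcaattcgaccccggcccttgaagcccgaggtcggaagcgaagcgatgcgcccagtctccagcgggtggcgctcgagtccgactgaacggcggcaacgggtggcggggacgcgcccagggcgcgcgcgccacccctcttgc
Hoxa9: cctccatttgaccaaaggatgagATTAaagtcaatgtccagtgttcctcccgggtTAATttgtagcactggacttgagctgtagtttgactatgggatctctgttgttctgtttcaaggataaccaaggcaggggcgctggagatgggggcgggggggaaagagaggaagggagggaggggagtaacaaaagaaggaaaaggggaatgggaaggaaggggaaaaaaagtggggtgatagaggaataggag
Hoxa10, distal start: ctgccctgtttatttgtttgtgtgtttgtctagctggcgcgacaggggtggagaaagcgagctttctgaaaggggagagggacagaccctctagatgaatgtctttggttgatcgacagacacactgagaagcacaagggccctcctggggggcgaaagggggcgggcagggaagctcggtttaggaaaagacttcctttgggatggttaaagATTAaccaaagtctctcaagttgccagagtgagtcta
Hoxa10, proximal start: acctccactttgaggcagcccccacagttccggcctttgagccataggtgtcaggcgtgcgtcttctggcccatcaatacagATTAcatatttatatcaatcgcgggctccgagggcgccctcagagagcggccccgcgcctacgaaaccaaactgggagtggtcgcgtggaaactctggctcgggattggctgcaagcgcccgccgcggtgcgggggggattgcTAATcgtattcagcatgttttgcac
The TAAT core occurred 3 times before Hoxa5, 2 times before Hoxa9, and 1 and 2 times before the distal and proximal starts of Hoxa10, and 54.9% of the 32851 promoters in the RefSeq table hold it in the same 250 bases. The dinucleotide CG occurred 28 times before Hoxa5, 3 times before Hoxa9 and 7 and 20 times before Hoxa10, against a median of 6 over all promoters. No window held TGACAG, the motif of Meis factors, or TGATNNAT, a motif of Hox and Pbx pairs, which 15.9% and 7.68% of all promoters hold on either strand. Promoters were found in the table for 22 of the 38 Hox genes.

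The remaining detected genes of cluster A lie before Hoxa9, except Hoxa11, which lies beyond Hoxa10. Hoxa7, which patterns the thorax, was at 10.8 and 16.6 CPM in SAT and at 25.5, 22.0 and 28.0 CPM in VAT. Hoxa3, needed for the thymus and the parathyroid in mouse, was at 4.76 and 5.32 CPM in SAT and at 11.2, 15.6 and 12.5 CPM in VAT. Both were lower in each SAT library than in any VAT library. Hoxa2, a regulator of hindbrain and branchial arch identity, and Hoxa6 also lay lower in both SAT libraries, at 1.64 to 4.02 CPM against 2.93 to 8.43 CPM in VAT, although Hoxa6 differed by less than 0.01 CPM between SAT library 2 and VAT CD26-CD142+ library 1. Hoxa4 overlapped between depots at 1.26 to 5.59 CPM. Hoxa11 was detected in 1 library, VAT CD26-CD142+ library 1, at 1.01 CPM from 22 counts, and had at most 6 counts elsewhere.

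Cluster C held the highest Hox levels in SAT, and its depot directions turned between Hoxc8 and Hoxc9. Hoxc10 (ENSMUSG00000022484, chromosome 15, 102966796 to 102971893), a gene of lumbar identity that is also known as a marker of subcutaneous fat, was at 55.9 and 22.7 CPM in SAT and at 1.97, 1.08 and 0.701 CPM in VAT. The depots did not overlap, and the SAT mean of 39.3 ± 23.4 CPM (SD, n = 2) was 31.5 times the VAT mean of 1.25 ± 0.653 CPM (SD, n = 3). Per gene length it ranked first of the 38 genes in SAT library 1 and second in SAT library 2, and between 18 and 20 in the VAT libraries.

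Hoxc9, which sets thoracic motor neuron identity in mouse, was at 39.4 and 30.1 CPM in SAT and at 20.4, 10.8 and 13.4 CPM in VAT. The SAT libraries were again the higher ones, here by a ratio of means of 2.33. Hoxc11, next to Hoxc10, was at 2.08 and 3.43 CPM in SAT and at 0.321, 0 and 0.247 CPM in VAT, with at most 7 counts in a VAT library. On the other side of the turn, Hoxc4 was at 23.8 and 20.2 CPM in SAT and at 50.2, 40.0 and 40.7 CPM in VAT, lower in both SAT libraries. Hoxc5 at 19.1 and 13.4 CPM in SAT and 23.0, 12.8 and 14.3 CPM in VAT overlapped between depots, as did Hoxc6 at 43.2 and 26.9 CPM in SAT and 49.0, 35.4 and 29.5 CPM in VAT. Hoxc8, a gene of the lower thorax, overlapped too, at 50.2 and 31.2 CPM in SAT and 82.0, 42.7 and 58.0 CPM in VAT. Per gene length, the ratio of Hoxc8 to Hoxc10 was 0.606 and 0.924 in SAT and 28.0, 26.8 and 55.8 in VAT.

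The clusters also hold microRNA genes, small RNAs that repress Hox mRNAs among other targets, and those beside the genes above are shown for their place. The hairpin of miR-196b (chromosome 6, 52230081 to 52230165, minus strand) lies in a Hoxa9 exon, that of Mir196a-2 (chromosome 15, 102973350 to 102973434, plus strand) lies between Hoxc10 and Hoxc9, and the hairpins of miR-10a and miR-10b lie beside Hoxb4 and inside the annotated span of Hoxd4. Capitals mark the seed, bases 2 to 8.
miR-196b-5p: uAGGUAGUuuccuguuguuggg
miR-196a-5p: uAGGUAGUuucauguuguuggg
miR-10a-5p: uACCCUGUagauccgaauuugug
miR-10b-5p: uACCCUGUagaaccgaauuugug
The miR-196 pair shares one seed and the miR-10 pair another. The hairpin genes had 0 to 7 counts per library, and mature microRNAs have no poly(A) tail, so their levels were not measured by these libraries.

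Cluster B lay lower and its depots mostly overlapped. Hoxb4, known for its part in blood stem cell growth, was at 14.0 and 10.5 CPM in SAT and at 23.6, 14.8 and 12.7 CPM in VAT. Hoxb6 was at 7.40 and 9.70 CPM in SAT and at 12.1, 8.86 and 12.4 CPM in VAT. Of the other detected genes of this cluster, Hoxb2, Hoxb3 and Hoxb7 overlapped between depots at 0.779 to 6.66 CPM, and only Hoxb5 did not, at 1.60 and 1.67 CPM in SAT against 3.63 to 5.18 CPM in VAT. Hoxb9 had at most 4 counts in any library, so cluster B added almost nothing at positions 9 and above. In cluster D, Hoxd8 was at 22.2 and 12.9 CPM in SAT and at 18.2, 15.2 and 15.1 CPM in VAT, and Hoxd9 was between 2.71 and 5.19 CPM over all libraries. Both overlapped between depots, and the posterior genes Hoxd10 to Hoxd13 had at most 6 counts in any library.

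Depot was tested over all gates with edgeR's quasi-likelihood test, fitted to the whole table with Benjamini-Hochberg adjustment. Of the 38 Hox genes, 24 passed the filter on low counts and were tested: 8 of cluster A, 7 of B, 7 of C and 2 of D. They include Hoxb8, which stayed under 1 CPM, and leave out Hoxa11. None passed an adjusted p of 0.05, where 0.0503% of all 15920 tested genes did. At an unadjusted p under 0.05 there were 5 Hox genes higher in SAT and 5 lower, which is 41.7% of those tested against 6.76% of all genes. DESeq2 called 7 Hox genes (Hoxa9, Hoxa10, Hoxc10 and Hoxc11 higher, Hoxa3, Hoxa5 and Hoxc4 lower) where it called 2.9% of all genes, and limma-voom called 0 where it called 0%. With no filter, or with CD26 status by library name as a term, edgeR called 3 (Hoxa5, Hoxa9 and Hoxc10) where it called 0.255% and 0.521% of all genes; with CD26 status by title it called 0 where it called 0%. Both SAT libraries lay above all VAT libraries for 5 Hox genes (Hoxa9, Hoxa10, Hoxc9, Hoxc10 and Hoxc11), 20.8% of those tested against 9.64% of all genes. They lay below for 7 (Hoxa2, Hoxa3, Hoxa5, Hoxa6, Hoxa7, Hoxb5 and Hoxc4), 29.2% against 10.2%. The filter keeps genes through the depot where they are higher.

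The smallest adjusted p by edgeR was that of Hoxc10, 0.146, for a log2 change of SAT minus VAT of 4.97 (SE 0.62), which was 4.18 without SAT library 1. Hoxa9 had 3.12 (SE 0.45, adjusted p = 0.185) and Hoxa10 had 3.86 (SE 0.72, adjusted p = 0.315), which was 4.73 without VAT CD26-CD142+ library 1. Hoxc9 had 1.22 (SE 0.34, adjusted p = 0.489) and Hoxc11 had 3.83 (SE 1.15, adjusted p = 0.550), while Hoxb7, next in that direction, had 0.19 (SE 0.45, adjusted p = 1.00) and a value of -0.10 without VAT CD26-CD142+ library 2. In the other direction, Hoxa5 had -2.91 (SE 0.44, adjusted p = 0.198), Hoxa3 had -1.37 (SE 0.30, adjusted p = 0.360) and Hoxc4 had -0.99 (SE 0.24, adjusted p = 0.419). Hoxb5 had -1.42 (SE 0.41, adjusted p = 0.520), Hoxa7 had -0.87 (SE 0.28, adjusted p = 0.582) and Hoxa6 had -1.34 (SE 0.60, adjusted p = 0.823). None of these 12 passed.

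By place in the clusters, the 6 tested genes of cluster A at positions 2 to 7 had log2 changes from -2.91 to -0.75, and those at positions 9 and 10 had 3.12 and 3.86. In cluster C the value was -0.99 at position 4, -0.58 to -0.04 at positions 5 to 8 and 1.22 to 4.97 at positions 9 to 11. Cluster B ranged from -1.42 to 0.19 with no gene tested at position 9 or above, and in cluster D, Hoxd8 had 0.12 and Hoxd9, a posterior gene, had -0.05. The median over the 24 genes was -0.25, against 0.01 over all tested genes.

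**Figure D2:**
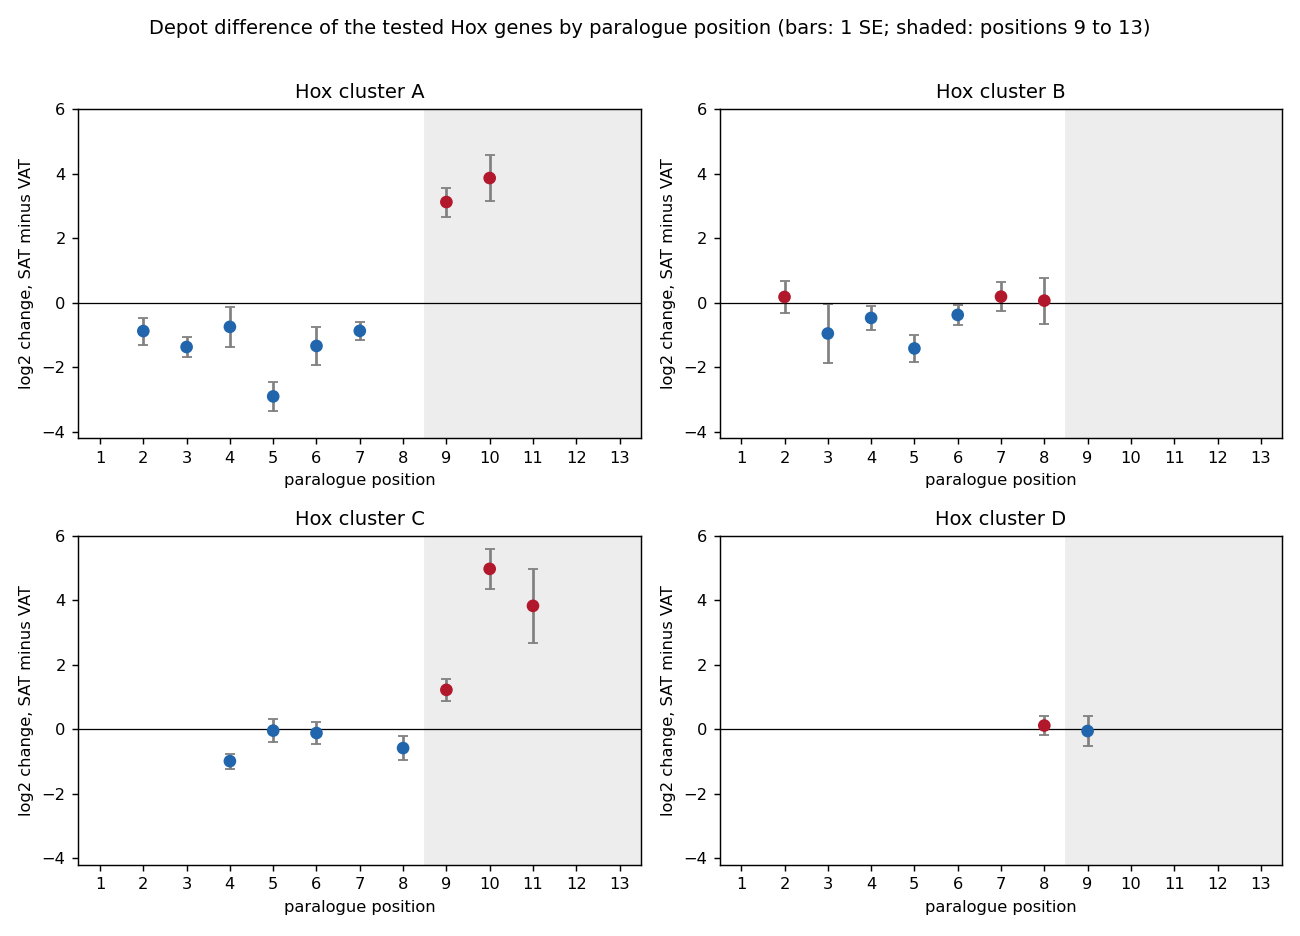
Log2 change of SAT minus VAT over all gates for the 24 tested Hox genes, against paralogue position, 1 panel per cluster; bars are 1 SE and positions 9 to 13 are shaded. Values are at or below -0.75 at positions 2 to 7 of cluster A and between 1.22 and 4.97 at positions 9 to 11 of clusters A and C; no gene passed an adjusted p of 0.05.

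By CPM, 20 of the 24 tested Hox genes had the direction of their depot value within each set of library numbers. Hoxb2, Hoxb8, Hoxd8 and Hoxd9, whose depot values lie near 0, did not. The depot values were fitted to these same libraries, so the count is not independent support for them. The share over all tested genes was not computed. Between SAT library 1 and VAT CD26-CD142+ library 1 alone, the log2 change was 4.81 for Hoxc10, 2.83 for Hoxa9, 3.07 for Hoxa10 and -2.90 for Hoxa5. Among the 3 libraries whose names end in 2, it was 4.66 for Hoxc10, 3.15 for Hoxa9, 4.55 for Hoxa10 and -3.20 for Hoxa5. The first of these sets holds 1 library per depot and gives no test.

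Summed per gene length, all 38 Hox genes came to 385 and 346 TPM in SAT and to 499, 439 and 484 TPM in VAT. Posterior genes (positions 9 to 13, 16 genes) summed to 149 and 113 TPM in SAT and 37.9, 23.1 and 31.9 TPM in VAT, which was 38.7% and 32.6% of the Hox total in SAT and 5.25% to 7.60% in VAT. Central genes (positions 5 to 8, 11 genes) came to 181 and 176 TPM in SAT and 313 to 353 TPM in VAT, and anterior genes (positions 1 to 4, 11 genes) to 55.1 and 56.8 TPM in SAT and 103 to 112 TPM in VAT. The depots did not overlap in any of these sums in TPM; in CPM, the sum of all 38 genes overlapped, at 366 and 259 in SAT and 317 to 435 in VAT. Position 10 was at 88.4 and 53.0 TPM in SAT and 2.25 to 4.70 TPM in VAT, a log2 ratio of means of 4.48. Position 11 was at 2.91 and 6.09 TPM in SAT and 0.123 to 1.84 TPM in VAT, a log2 ratio of 2.48, and position 5 was at 31.2 and 26.2 TPM in SAT and 99.9 to 135 TPM in VAT, a log2 ratio of -2.04. Cluster A came to 65.2 and 71.5 TPM in SAT and 169 to 186 TPM in VAT, whereas cluster C overlapped, at 253 and 203 TPM in SAT and 178 to 238 TPM in VAT. These sums were not tested.

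**Figure D3:**
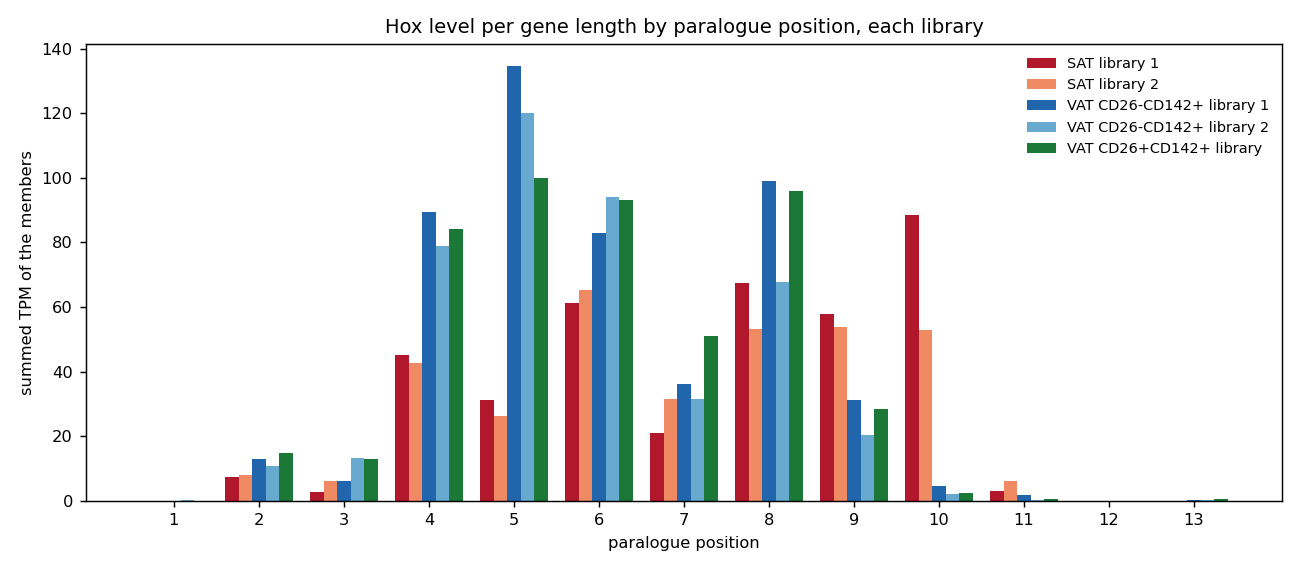
Summed TPM of the Hox genes at each paralogue position, 1 bar per library. Position 10 reaches 88.4 and 53.0 TPM in the SAT libraries and at most 4.70 TPM in VAT, and position 5 reaches 99.9 to 135 TPM in VAT and at most 31.2 TPM in SAT.

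Against the VAT CD26-CD142+ pair alone, the same 4 Hox genes passed the threshold with either SAT library. Titles and names disagree on which SAT library is CD142+, so at most 1 of these comparisons is within the CD142+ gate; F3 was at 241 and 379 CPM in the VAT pair, against the 618 and 5.32 CPM of SAT libraries 1 and 2. By title, SAT library 2 was compared with the pair of VAT CD26-CD142+ libraries in a fit of 4 groups, where 1 residual degree of freedom came from that VAT pair and the lone libraries were assumed to vary like it. The adjusted p values below rest on that assumption. The depot test over all gates, which has 2 and 3 libraries a side, called 0 of these genes. Its spread includes differences between gates within each depot. By edgeR, 4 of 24 Hox genes passed, where 6.48% of all genes did, and 3 of them (12.5%) were higher in SAT, where 2.8% of all genes were. Hoxc10 rose by 3.90 (SE 0.52, adjusted p = 1.85e-04), Hoxa9 by 2.59 (SE 0.58, adjusted p = 0.0112) and Hoxa10 by 3.52 (SE 0.79, adjusted p = 0.0193) on the log2 scale. The level of Hoxc10 in SAT library 2 was 14.9 times the mean of the VAT pair, that of Hoxa10 11.5 times and that of Hoxa9 6.02 times. Hoxa5 alone was lower, by -3.61 (SE 0.59, adjusted p = 9.44e-04), which is 4.17% of the tested Hox genes against 3.68% of all genes; its VAT mean was 12.2 times its level in SAT library 2.

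The other Hox genes did not pass by title. Hoxc11 had 4.39 (SE 1.29, adjusted p = 0.0669), Hoxc9 had 0.95 (SE 0.50, adjusted p = 0.444) and Hoxb2 had 0.58 (SE 0.77, adjusted p = 0.929). Lower values were those of Hoxa4 at -2.01 (SE 0.78, adjusted p = 0.186), Hoxc4 at -1.16 (SE 0.51, adjusted p = 0.279), Hoxa3 at -1.33 (SE 0.58, adjusted p = 0.285), Hoxb5 at -1.51 (SE 0.78, adjusted p = 0.432) and Hoxa2 at -1.33 (SE 0.71, adjusted p = 0.453).

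By name, SAT library 1 took the place of SAT library 2 against the same VAT pair, so both comparisons share their VAT libraries and their estimate of the spread, and the repeat is not independent support. Again 4 of 24 Hox genes passed, where 2.36% of all genes did: 3 were higher, where 1.36% of all genes were, and 1 was lower, where 0.992% were. Hoxc10 rose by 5.20 (SE 0.54, adjusted p = 6.97e-05), Hoxa9 by 3.21 (SE 0.59, adjusted p = 0.00579) and Hoxa10 by 3.83 (SE 0.80, adjusted p = 0.0272). Hoxa5 changed by -2.74 (SE 0.56, adjusted p = 0.0132). Hoxa10 rests on 40 and 8 counts in the VAT pair: without VAT CD26-CD142+ library 1 its log2 value was 5.16 by title and 5.47 by name, and without library 2 it was 2.76 and 3.07, values that no longer have a test.

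Hox genes that did not pass by name were led in the higher direction by Hoxc9 at 1.33 (SE 0.49, adjusted p = 0.289), Hoxc11 at 3.67 (SE 1.29, adjusted p = 0.264) and Hoxd8 at 0.41 (SE 0.48, adjusted p = 0.981). In the lower direction Hoxa3 had -1.49 (SE 0.59, adjusted p = 0.359), Hoxb3 had -2.34 (SE 0.94, adjusted p = 0.382) and Hoxa7 had -1.13 (SE 0.50, adjusted p = 0.468). Hoxa6 had -1.79 (SE 0.82, adjusted p = 0.517) and Hoxb5 had -1.57 (SE 0.79, adjusted p = 0.598).

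**Figure D4:**
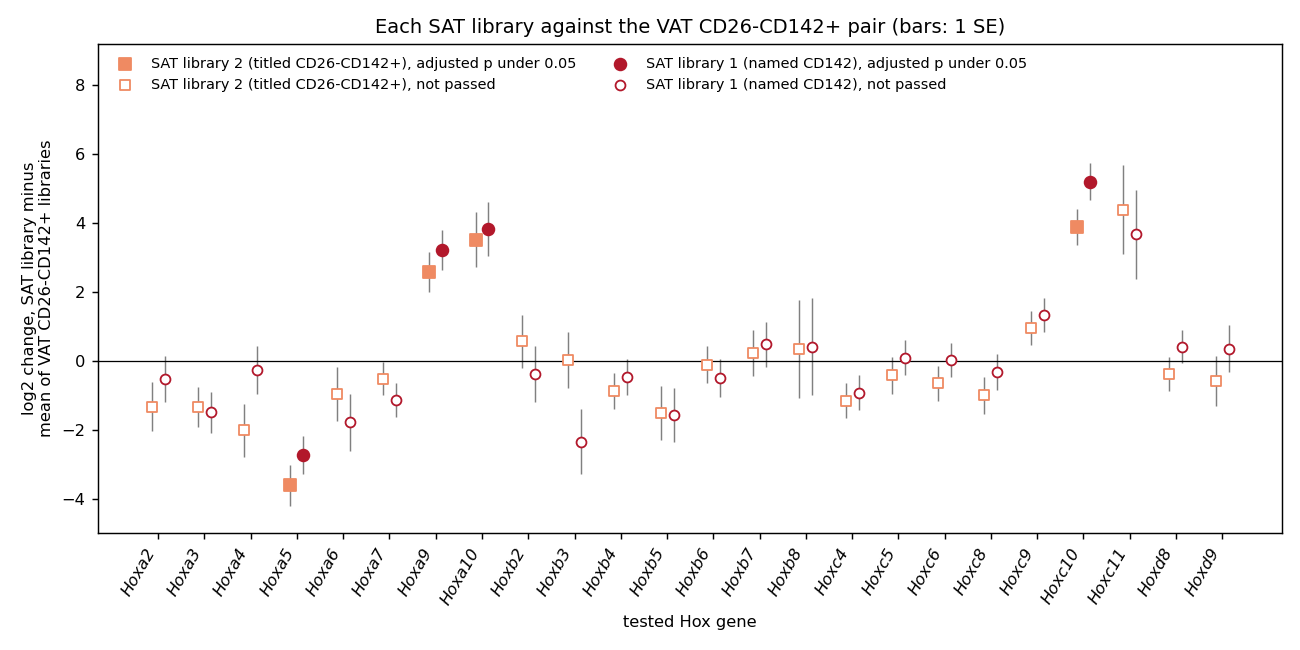
Log2 change of a SAT library minus the mean of the VAT CD26-CD142+ pair for each tested Hox gene; squares take SAT library 2 (by title), circles SAT library 1 (by name), bars are 1 SE and filled symbols passed an adjusted p of 0.05. Hoxa9, Hoxa10 and Hoxc10 are filled above 0 and Hoxa5 is filled below 0 for both SAT libraries.

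Between the gates of VAT, no difference in Hox genes was detectable. In the VAT CD26+CD142+ library against the CD26-CD142+ pair, 0 of 24 Hox genes passed by edgeR, where 1.6% of all genes did. DESeq2 and limma-voom called 0 Hox genes where they called 2.18% and 1.39% of all genes. The smallest adjusted p was that of Hoxc10, 0.832, at -1.11 (SE 0.63). Below 0 were also Hoxa5 at -0.72 (SE 0.50), Hoxb4 at -0.60 (SE 0.52), Hoxc6 at -0.52 (SE 0.50), Hoxa9 at -0.64 (SE 0.65) and Hoxa4 at -0.48 (SE 0.70). Above 0 were Hoxb3 at 0.60 (SE 0.79), Hoxb7 at 0.46 (SE 0.65), Hoxb8 at 0.79 (SE 1.38), Hoxa7 at 0.24 (SE 0.47), Hoxb6 at 0.25 (SE 0.54) and Hoxc11 at 0.63 (SE 1.46). All these other values had an adjusted p of 1.00, and with 1 library in a gate they do not show that the gates are alike.

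Between SAT libraries 1 and 2, which have no replicate and no test, genes at 10 CPM or more in the higher library were eligible. Of 11 eligible Hox genes 1 was at least 2-fold apart, where 22.4% of all eligible genes were. It was Hoxc10, at 2.46 times as much in library 1 (exact conditional 95% interval 2.22 to 2.73). Hoxd8 had a ratio of 1.73 (1.49 to 2.01), while Hoxa7 was lower in library 1, at 0.650 (0.551 to 0.765). Hoxa5, which was not eligible, had a ratio of 1.83 (1.46 to 2.30). Larger differences lay under the 10 CPM limit. Hoxb3 was at 0.779 CPM in library 1 and 4.01 CPM in library 2, and Hoxa4 was at 4.24 and 1.26 CPM.

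Whether the gate effect differed between SAT and VAT was tested in the same 4-group fit, with the CD26+ library of each depot set against its CD26- one; the SAT CD26+ gate excludes CD142 and the VAT one includes it. By title, the SAT library taken as CD26+ had Dpp4 at 6.58 CPM and the one taken as CD26- had it at 1007 CPM. In this reading 0 of 24 Hox genes passed by edgeR where 6.61% of all genes did. DESeq2 and limma-voom called 0 where they called 7.09% and 5.35% of all genes. The higher values were those of Hoxc10 at 2.41 (SE 0.87, adjusted p = 0.134), Hoxa5 at 1.59 (SE 0.76, adjusted p = 0.288), Hoxa4 at 2.22 (SE 1.10, adjusted p = 0.307), Hoxc6 at 1.20 (SE 0.75, adjusted p = 0.441), Hoxa9 at 1.27 (SE 0.95, adjusted p = 0.536) and Hoxb4 at 1.01 (SE 0.79, adjusted p = 0.558). The lower ones were those of Hoxb3 at -2.96 (SE 1.27, adjusted p = 0.234), Hoxa7 at -0.86 (SE 0.73, adjusted p = 0.598), Hoxa6 at -0.92 (SE 1.15, adjusted p = 0.745), Hoxb2 at -0.95 (SE 1.20, adjusted p = 0.749), Hoxb6 at -0.64 (SE 0.83, adjusted p = 0.756) and Hoxc11 at -1.35 (SE 2.02, adjusted p = 0.800).

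By name, 0 of 24 passed where 0.251% of all genes did, with an adjusted p of 1.00 throughout. DESeq2 and limma-voom called 0 where they called 0.534% and 0.0565% of all genes. The values furthest from 0 by p were Hoxb3 at 1.76 (SE 1.29), Hoxb2 at 0.96 (SE 1.22), Hoxa6 at 0.74 (SE 1.16), Hoxa7 at 0.38 (SE 0.73), Hoxb5 at 0.45 (SE 1.13) and Hoxa3 at 0.26 (SE 0.84). In the other direction they were Hoxa4 at -1.26 (SE 1.07), Hoxd9 at -0.97 (SE 1.06), Hoxd8 at -0.65 (SE 0.74), Hoxa2 at -0.83 (SE 1.01), Hoxc8 at -0.59 (SE 0.79) and Hoxb7 at -0.72 (SE 1.01).

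Hox proteins bind DNA with the homeodomain cofactors of the Pbx, Meis and Pknox families. All 9 cofactor genes were tested, and 0 passed between depots over all gates; their median log2 change was 0.04. Meis1 was at 12.1 and 20.2 CPM in SAT and at 56.7, 66.9 and 57.4 CPM in VAT. It was lower in both SAT libraries, by -1.90 over all gates (SE 0.31, adjusted p = 0.237), by -1.61 against the VAT pair by title (SE 0.52, adjusted p = 0.0866) and by -2.36 by name (SE 0.54, adjusted p = 0.0280), and the last of these passed. Of the 22 Polycomb and trithorax genes, whose products keep Hox clusters silent or active, 0 passed in any of the comparisons between depots or gates.

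Transcripts of the clusters other than the Hox mRNAs were few. Of 16 noncoding and antisense transcripts listed, 11 were found in the table and 7 tested, and 0 passed between depots. Hotairm1, a long noncoding RNA at the anterior end of cluster A, was the highest, at 4.72 and 2.39 CPM in SAT and 9.58, 6.24 and 3.67 CPM in VAT. Hotair, from the posterior part of cluster C, had at most 0.124 CPM, and Hottip, beyond the posterior end of cluster A, had 0. The end genes Evx1 and Evx2, and the Hox-related genes Cdx1, Cdx2, Cdx4, Gsx1, Gsx2 and Pdx1, had 0 counts in every library. Of 7 neighbours outside the clusters 5 were tested and 0 passed between depots.

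The counting step's use of strand is not given, so reads of overlapping genes cannot be told apart. Hoxa5, Hoxa10, Hoxc4, Hoxc9 and Hoxc11 share no exon bases with another gene of GENCODE mouse release 21, and Hoxa9 shares 1.52% with Mir196b. Hoxc10 shares 8.70% with Hoxc5, whose annotated span begins inside it. Among the detected genes, larger shares were those of Hoxb3 at 52.9%, Hoxa11 at 35.0%, Hoxb2 at 27.3% and Hoxa3 at 27.1%. Hoxa7 shares 20.4%, and Hoxa4 and Hoxa2 share 15.0% or more. The values of these genes are uncertain for that reason, by an amount that the shares do not measure. Among the genes under 1 CPM, Hoxd3 shares 62.8%, Hoxd4 52.3% and Hoxd11 10.8%. The other Hoxd4 row is not in that GENCODE release, so the overlap between the Hoxd4 rows is not part of these shares.

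Markers of other cell types moved with libraries and, for 1 list, with depot. Of 9 mammary and skin epithelial markers, 5 reached 1 CPM in SAT library 1, with a summed level of 81.6 CPM against 8.93 in SAT library 2 and 0.596 to 5.15 in VAT, and of the casein genes Csn3 was at 17.0 CPM in SAT library 1 and 0 elsewhere while Csn2 was at 0 in every library. SAT library 1 is also where Hoxc10, Hoxa9, Hoxc9, Hoxa10, Hoxd8, Hoxd9 and Hoxb7 were highest, while Hoxc11 and Hoxb2 were highest in SAT library 2. All 38 Hox genes summed to 366 CPM in SAT library 1 and 259 CPM in SAT library 2. Of 10 mesothelial markers, 10 reached 1 CPM in the VAT CD26+CD142+ library, 4 in VAT CD26-CD142+ library 2 and 4, all of them keratins, in SAT library 1. The summed levels were 251 and 173 CPM, against 4.60 CPM in SAT library 2 and 2.48 and 17.5 CPM in the VAT pair. Hoxa5 was lowest of VAT in that CD26+CD142+ library. Of 6 epididymal markers, 2 reached 1 CPM in VAT CD26-CD142+ library 1 and at most 1 elsewhere, with a summed level of 7.98 CPM against 2.15 and 5.40 CPM in the other VAT libraries and 2.38 and 21.1 CPM in SAT; Lcn5 was at 0 everywhere. Hoxa9, Hoxa10, Hoxa11, Hoxc10 and Hoxd11 were highest of VAT in that library. So were many anterior and central genes, among them Hoxa5, Hoxb4, Hoxc4, Hoxc6, Hoxc8 and Hoxd8. Of the detected genes, Hoxa3, Hoxa6, Hoxa7, Hoxb3, Hoxb6 and Hoxb7 were not. Of 5 Schwann cell markers, 4 and 2 reached 1 CPM in SAT libraries 1 and 2 and 2 to 3 in VAT, with summed levels of 40.8 and 54.9 CPM in SAT against 10.9 to 12.6 CPM in VAT. Most of this was S100b in SAT library 1, at 25.9 CPM, and Mbp in SAT library 2, at 51.2 CPM, while Sox10 was at 0.779 CPM in SAT library 1 and 0 elsewhere. All 6 mural markers reached 1 CPM in every library, with summed levels of 68.8 and 97.9 CPM in the VAT pair and 22.8 to 38.6 CPM in the other libraries. Of 4 adipocyte markers, 3 reached 1 CPM in SAT library 1 and in each of the VAT pair and 0 in the other libraries, with summed levels of 16.1, 8.48 and 17.5 CPM against 0.316 and 0.701 CPM. Summed levels ran from 10.4 to 34.3 CPM for 8 endothelial markers, from 25.8 to 58.2 CPM for 8 macrophage markers, from 5.64 to 10.1 CPM for 5 skeletal muscle markers and up to 1.30 CPM for 6 lymphocyte markers. The part of these cells in the Hox values was not tested. The depot values of Hoxc10, Hoxa9, Hoxa10 and Hoxa5 kept their direction without each library in turn. Leaving out single libraries does not test for cells shared by all libraries of a depot.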

How the data were processed

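Poly(A)-selected RNA of sorted mouse adipose stem cells was sequenced in 5 libraries. The authors deposited raw counts of reads per Ensembl gene in 1 table, not normalized. The deposited table also gives, in another unit, a gene length in bases. The submitters' processing notes name HISAT2 2.0.5, CASAVA, mm10 and featureCounts 1.5.0-p3; the annotation release, strand setting and treatment of shared reads are not given in the sources used here. The table held 0 columns of samples that could not be mapped. Of 38 Hox names, 1 (Hoxd4) has 2 rows, both 0.

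Library sizes were normalized with TMM factors in edgeR 4.0.16 (R 4.3.3), which gave CPM; TPM was computed from counts and the deposited gene length. The low-count filter was filterByExpr with depot groups and min.count 10, which kept 15920 genes. Depot was tested with edgeR's quasi-likelihood F test (robust) with 3 residual degrees of freedom, and gates in a 4-group fit with 1, with Benjamini-Hochberg adjustment over all tested genes at 0.05. Nothing says that libraries came from separate animals, so p-values measure the spread between these libraries, which may be technical. In the depot fit that spread also includes differences between gates, because both depots mix gates. The SE was derived from the F statistic (change over the root of F), is not a fitted error, and can be too small at few counts. SAT libraries were compared without a test, at 2-fold, adding 1 CPM to each level and asking for 10 CPM in the higher library; intervals at 95% cover counting error only. DESeq2 1.42.0, limma 3.58.1, other scalings and filters, terms for CD26 status and library number, and leaving out each library were alternatives.

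The Hox genes and the other lists were chosen with earlier results of these data known. Values in every library are printed for genes at 10 CPM or more in 1 library. Log2 changes are printed for genes that passed and for the 6 in each direction with the smallest unadjusted p; other genes appear by list only. Hoxa11, Hoxd11, Hoxb1, Hoxd1, Hoxb9 and the cell type markers were singled out after their values were seen. So were Hoxa4, Hoxa5, Hoxa7, Hoxb3 and Hoxd8 between the SAT libraries.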

Additional observations from a re-analysis of the deposited data

How the results depend on the processing

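Over all gates between depots, 0 Hox genes passed in the main test and under most alternatives; DESeq2 called 7, and no filter on low counts and CD26 status by library name as a term each called 3 (Hoxa5, Hoxa9 and Hoxc10), while CD26 status by title called 0. Leaving out each library in turn gave 0 to 0. With the library number as a replicate block 0 passed. Deviations from the depot means correlated at 0.661 for the libraries numbered 1 and at 0.0195 and 0.646 for those numbered 2. Such deviations cancel within each depot, so the correlations are tied to each other. They cannot decide whether the numbers pair the libraries. No paired analysis was possible for the other comparisons because no residual degree of freedom is left. Against the VAT CD26-CD142+ pair, 4 to 5 Hox genes passed by title and by name under every alternative that could be tested, always with Hoxa5, Hoxa9, Hoxa10 and Hoxc10; Hoxc11 was the fifth. The alternatives without SAT library 1, SAT library 2 or the VAT CD26+CD142+ library there were chosen after seeing the data. Leaving out a library of the VAT pair leaves no residual degree of freedom and gave values without a test. Hoxb3 and Hoxc11 then changed sign between VAT gates. Hoxa6 changed sign in the gate effect by name, from 0.74 to -0.21. The gate comparisons gave 0 throughout; upper-quartile scaling moved the median of all genes by 0.119 in the gate effect by title. Without division by gene length, the log2 ratio of SAT over VAT for summed levels moved from -0.37 to -0.19 for all 38 genes, from -1.36 to -0.81 for cluster A, from -0.95 to -0.85 for anterior genes and from -0.91 to -0.69 for central genes. Hoxb7 ranged from -0.10 to 0.36 without each library in turn, reversed without VAT CD26-CD142+ library 2. The causes were not tested. Of single-gene values, 694 were classed as the same, 17 came to pass the threshold, 14 moved and 1, that of Hoxb7, reversed. The changes of sign of Hoxb3, Hoxc11 and Hoxa6 given above were not classed as reversed. Depth limits genes with few counts, such as Hoxa10 and Hoxc11 in VAT.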

Other observations

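Levels also differed between libraries by the number that ends their names. Hoxb3 was at 0.779 CPM in SAT library 1 and 1.70 CPM in VAT CD26-CD142+ library 1, and at 4.01, 6.24 and 6.02 CPM in SAT library 2, VAT CD26-CD142+ library 2 and the VAT CD26+CD142+ library. It was 1 of the 24 tested Hox genes (4.17%), and the sole one, with both libraries ending in 1 below all those ending in 2, and Hoxc5, Hoxc6, Hoxd8 and Hoxd9 (16.7%) had both above. Over all 15920 tested genes these shares were 25.1% and 24.2%. Of 22 Polycomb and trithorax genes, 8 (36.4%) were below and 2 (9.09%) above. The libraries ending in 1 are also those with the higher mitochondrial shares.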
